A study of Mus musculus with 5 samples.

Results

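The nuclear-encoded respiratory chain genes are the genes of the cell nucleus that encode subunits of mitochondrial complexes I to V and some of their assembly factors. They were chosen by symbol: every gene that starts with Ndufa, Ndufb, Ndufc, Ndufs, Ndufv, Sdh, Uqcr, Cox4, Cox5, Cox6, Cox7, Cox8 or Atp5, without processed pseudogenes (a -ps ending, which no matching symbol carried). This gave 96 of 27998 genes, all protein coding in the GENCODE vM21 annotation of GRCm38. By role, 36 are complex I subunits, 4 complex II, 8 complex III, 20 complex IV and 15 complex V (ATP synthase), and 13 are assembly factors or related proteins. The measurement was droplet single-cell RNA sequencing from the 5′ end of live CD45+ cells, that is, white blood cells, sorted from 3 mice. Mouse 1 had been given nivolumab_mIgG1_D265A and mouse 2 nivolumab_mIgG1, which are forms of the PD-1 blocking antibody nivolumab, and mouse 3 had been given MOPC21, an isotype control antibody. Each mouse gave cells from the tumour, the draining lymph node and a non-draining lymph node, so there are 9 samples of 1 mouse and 1 site each, pooled under hashtag antibodies and sequenced together. The labels used here do not tie a hashtag to a mouse or site. The 9 hashtag populations are therefore numbered 1 to 9 and described side by side, with no treatment or tissue comparison and no test across them; the age, strain and genotype of the mice and the tumour model are not given in the sources used here.

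Oxidative phosphorylation moves electrons from NADH and succinate through complexes I and II, ubiquinone, complex III, cytochrome c and complex IV to oxygen, and the proton gradient built on the way drives ATP synthase. Complexes I, III, IV and V are mosaics: mitochondrial DNA encodes a small core of subunits, nuclear genes encode all the others, and complex II is wholly nuclear-encoded. In lymphocytes the pathway is known for the growth that follows activation and for long-lived resting cells, and in myeloid cells for the balance between glycolytic and oxidative states.

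Expression is given in CPM, the unique molecular identifiers (UMIs, each standing for 1 captured RNA molecule) of a gene per 1000000 gene UMIs of the same cells. CPM is a share of a cell's RNA, so a level also depends on what else the cell expresses. Intervals are 95% and cover counting error only. The 96 genes held 2251365 UMIs, 1.78% of all UMIs, and the 13 protein-coding genes of mitochondrial DNA (mt- genes) held 1.501%. Of the 96, 92 had at least 100 UMIs and 87 at least 1000. The other 4 encode isoforms or a paralog known from other tissues: Cox7b2 had 1 UMI, Cox8b 2, Ndufa4l2 6 and Cox8c 0. The 9 populations held 2051 to 2550 cells each, with median depths of 3374 to 10662 UMIs per cell. Ptprc, which encodes CD45, was seen in 89.5% of cells, and markers of stroma and red cells summed to 84.1 CPM. Cell classes were gated on marker genes that are not among the 96, so a class name means cells carrying those markers (naive CD4 T-like cells, and so on), and 9154 of 21094 cells (43.4%) fell in a class. Germinal centre B, activated and cycling cells needed several detected state markers. B cells could hold no germinal centre or cycling marker, and naive T cells no activation or cycling marker. Markers are seen more easily in deep cells, so these gates favour deep cells in the former classes and shallow cells in the latter. How far they set the depth of a class was not tested.

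The summed level of the 96 genes ranked the classes from germinal centre B cells (activated B cells that divide and mutate their antibody genes) at the top to other B cells at the bottom. The 104 germinal centre B cells had 25711 CPM (25449 to 25975). Activated CD8 T cells in cycle (78 cells) followed at 23822 CPM and activated CD8 T cells outside the cycle (821 cells) at 20351 CPM. Plasmacytoid dendritic cells had 20128 CPM in 21 cells (19431 to 20843), an interval that overlaps that of activated CD8 T cells (20231 to 20471). Natural killer (NK) cells stood at 18965 CPM, macrophages at 18578, regulatory T cells (Treg) at 17658, monocytes at 15785, naive CD8 T cells at 15723, migratory dendritic cells at 15438, naive CD4 T cells at 15106 and B cells at 14336. The order from monocytes to migratory dendritic cells is not resolved, because their intervals overlap. The interval of migratory dendritic cells also overlaps that of naive CD4 T cells. The ranking of the classes is for CPM of all gene UMIs and depends on that total. Of 60 class levels recomputed with other totals, gates, clusters or hashtag limits, 22 stayed within the reported interval and 38 did not. With mt- and ribosomal protein genes left out of the total, Treg were not above naive CD4 T cells, as given below.

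Within a class, the populations lay close together for naive and B cells. The 6 populations with B cells had between 14130 and 14538 CPM (median 14261), and the 6 with naive CD8 T cells between 15432 and 16074 CPM (median 15694). Naive CD4 T cells spanned 14763 to 15621 CPM (median 15024), so the naive CD4 and CD8 ranges overlap while neither overlaps that of B cells. Germinal centre B cells had 24200, 26062 and 26434 CPM in populations 2, 5 and 8, the populations with at least 20 of them. Activated CD8 T cells had 20196, 19831 and 22223 CPM in populations 1, 4 and 7. All of these are above every naive CD8 T value. NK cells in the same populations had 18434, 19043 and 19654 CPM, and macrophages 18001, 18024 and 19207 CPM, 2 ranges that overlap. Monocytes had 16236, 14385 and 16300 CPM there, all below the macrophages. Treg were the most spread class, with 17242, 19613, 16322, 16714 and 18459 CPM in populations 1, 2, 3, 4 and 6.

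**Figure D1:**
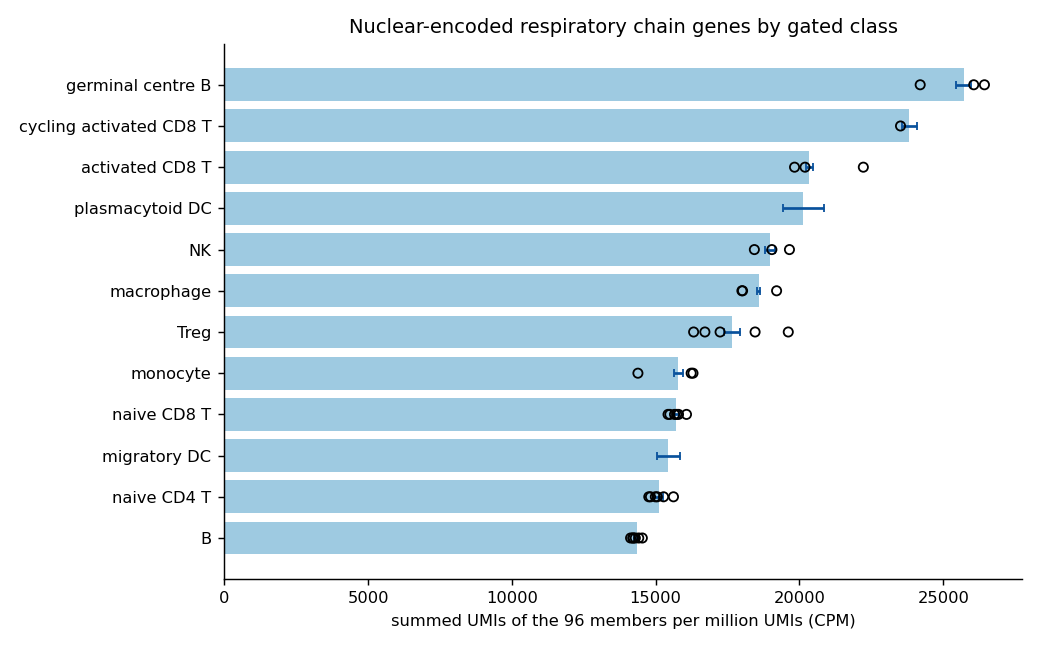
Summed CPM of the 96 nuclear-encoded respiratory chain genes by cell class. Bars give all cells of a class with the 95% Poisson interval, and circles each hashtag population with at least 20 cells; germinal centre B cells stand highest at 25711 CPM and B cells lowest at 14336 CPM.

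The mt- genes did not follow the same order. They were highest in plasmacytoid dendritic cells (21935 CPM), B cells (20856 CPM) and naive CD8 T cells (18822 CPM), and lowest in monocytes (7967 CPM) and activated CD8 T cells (9936 CPM). Nuclear-encoded UMIs per mt- UMI therefore ran from 0.687 in B cells, 0.835 in naive CD8 T cells and 0.931 in naive CD4 T cells to 1.98 in monocytes, 2.05 in activated CD8 T cells and 2.22 in those in cycle. Germinal centre B cells, with the highest nuclear-encoded level, stood at 1.62 and macrophages at 1.39. The order was similar within single complexes: for complex I the ratio of nuclear-encoded to mt- UMIs was 0.780 in B cells and 3.25 in activated CD8 T cells, for complex IV 0.359 and 0.983, and for complex V 1.56 and 4.51. Treg split by population. In populations 1 and 4 they held 2.47 and 2.03 nuclear-encoded UMIs per mt- UMI, and in populations 2, 3 and 6 they held 1.33, 0.968 and 1.34. The difference lies mostly on the mt- side, with 6993 and 8253 mt- CPM in populations 1 and 4 against 14789, 16870 and 13824 in the others; ribosomal protein genes took 10.1% and 9.78% of Treg UMIs in the first pair and 21.7%, 21.5% and 19.3% in the others.

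**Figure D2:**
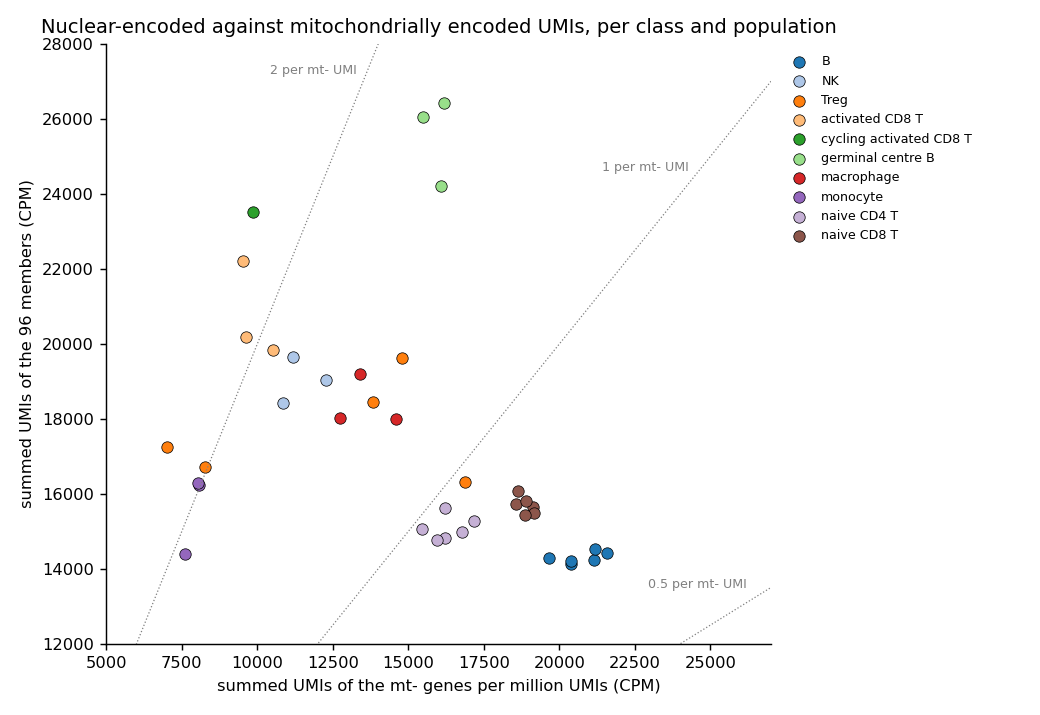
Summed CPM of the nuclear-encoded genes (vertical axis) against summed CPM of the 13 mt- genes (horizontal axis), 1 point per class and population with at least 20 cells. Dotted lines mark fixed numbers of nuclear-encoded UMIs per mt- UMI; B cells lie lowest on this ratio at 0.687 and activated CD8 T cells in cycle highest at 2.22, over all their populations.

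In most classes the summed level moved with the number of UMIs per cell. B cells with 1000 to 2000 UMIs had 12785 CPM, those with 2000 to 4000 had 14043 CPM and those with 4000 to 8000 had 15442 CPM. Germinal centre B cells had 19836 CPM at 4000 to 8000 UMIs (24 cells), 22960 CPM at 8000 to 16000 and 27668 CPM at 16000 to 32000. In both, the respiratory genes took a larger share of the RNA in deeper cells. Activated CD8 T cells went from 15956 CPM at 1000 to 2000 UMIs to 21365 CPM at 8000 to 16000, and naive CD8 T cells from 14807 to 17392 CPM over the same bins. The class medians differ widely, from 2914.5 UMIs in B cells to 15094 in cycling activated CD8 T cells, so each comparison below is also given for cells matched in UMIs per cell. That matching was chosen after the data were seen.

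In macrophages the level did not climb evenly with depth. The 46 cells with 1000 to 2000 UMIs had 14601 CPM with 29620 mt- CPM. Those with 2000 to 4000 and 4000 to 8000 UMIs had only 9472 and 9897 CPM of nuclear-encoded respiratory genes, with 35491 and 25584 mt- CPM, and those with 8000 to 16000 and 16000 to 32000 UMIs had 17536 and 20747 CPM with 12885 and 10809 mt- CPM. The difference on either side of 8000 UMIs was present in populations 1, 4 and 7, which held 315, 531 and 673 of the 1531 macrophages. Between 2000 and 8000 UMIs, the 122, 153 and 173 macrophages of populations 1, 4 and 7 had 10762, 8802 and 9928 CPM, and between 8000 and 32000 UMIs the 171, 356 and 478 macrophages had 19686, 19222 and 20188 CPM. Malat1, a nuclear RNA that is not translated, moved the other way, from 18521, 18235 and 15836 CPM in the shallower cells to 6961, 6380 and 4956 CPM in the deeper ones. Monocytes showed no such step: those with 2000 to 4000 UMIs had 12615 CPM, and those with 4000 to 8000 and 8000 to 16000 had 15503 and 15760 CPM, with mt- levels of 11971, 8554 and 7396 CPM. The part of Malat1 and mt- content in the macrophage levels was not tested, and the boundary at 8000 UMIs was drawn after the values were seen.

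**Figure D3:**
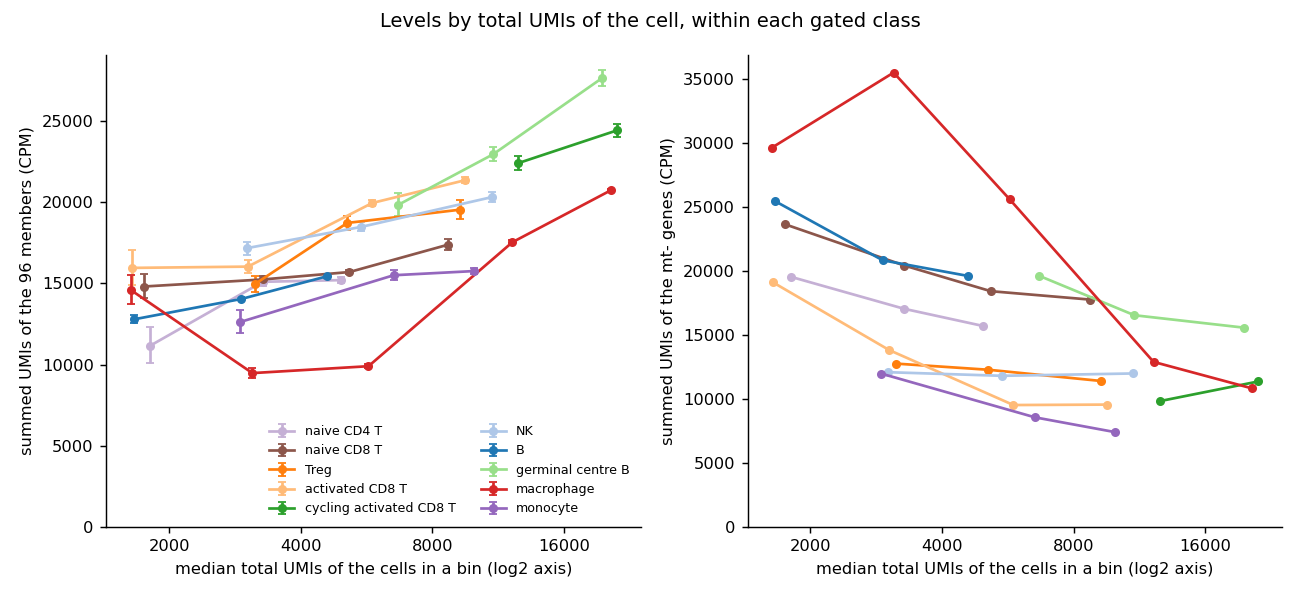
Summed CPM of the nuclear-encoded genes (left) and of the mt- genes (right) by UMIs per cell, 1 line per class. Most lines on the left climb with depth, while macrophages step from 9897 to 17536 CPM between the bins on either side of 8000 UMIs and their mt- level steps from 25584 to 12885 CPM.

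In 6 class pairs compared gene by gene over all cells, only germinal centre B cells against B cells had a share of members higher well above that of all genes. There 55 members were higher (62.5%, against 24.6% of all genes) and 2 lower. Macrophages against monocytes had 23 higher (25.8%, against 27.2%) and 2 lower, and activated against naive CD8 T cells 21 higher (24.1%, against 23.8%) and 4 lower. These counts moved with depth, as given below. A gene counts as higher or lower when its CPM ratio is at least 1.5 in either direction and both classes together hold at least 100 UMIs, a rule of size and not a test. The share of all genes past the same fold stands beside the first count of each comparison. The comparisons share classes (activated CD8 T cells, naive CD4 T cells and B cells each enter a pair of them), so they are not independent of one another.

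**Figure D4:**
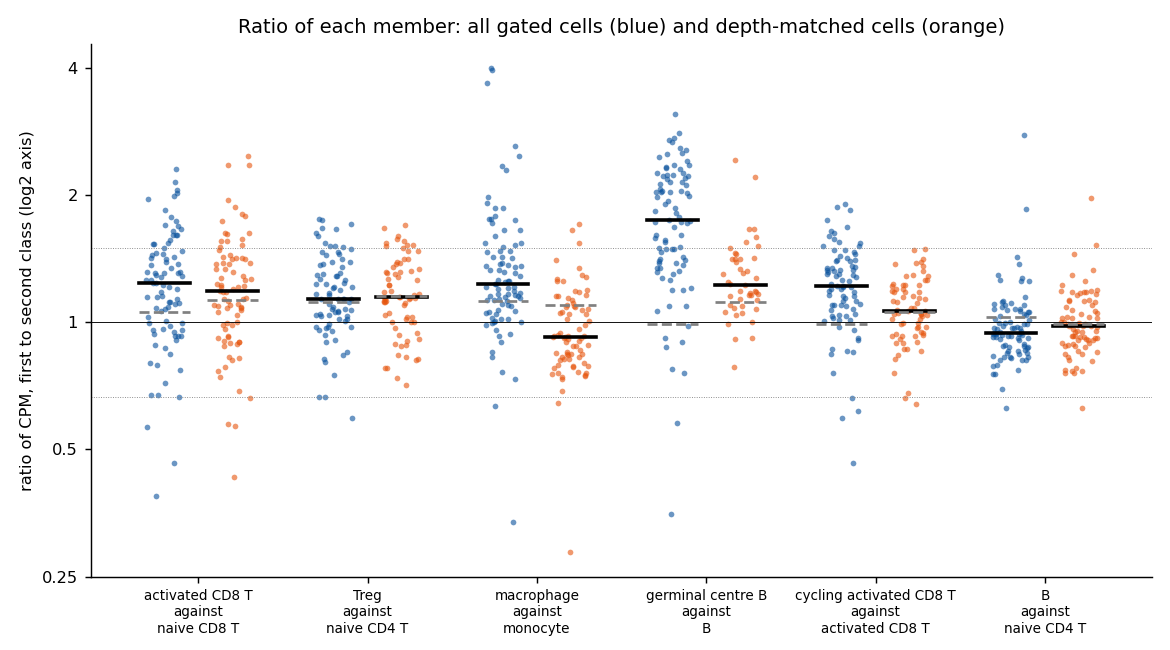
CPM ratio of each member (log2 axis) in the 6 class comparisons, over all cells in blue and over cells matched in UMIs in orange. Black bars mark the median of the members, grey dashed lines the median of all genes and dotted lines the 1.5-fold bounds; matching moves the germinal centre B cell members most, from a median ratio of 1.74 to 1.23.

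Activated CD8 T cells (gated on genes such as Pdcd1, Gzmb and Ifng) held more nuclear-encoded respiratory RNA than naive CD8 T cells and less mt- RNA, and complex IV shifted most. The summed ratio was 1.29 (1.28 to 1.305), while the mt- genes stood at 0.528. Of 87 members tested, 21 were higher (24.1%, against 23.8% of all genes) and 4 lower (4.598%, against 18.1%), so the share higher is that of any genes, and the share lower is smaller. The median ratio of the members was 1.23 against 1.06 over all genes. By complex, 7 of 12 complex IV genes were higher and 1 lower (median 1.53), against 6 of 36 in complex I (median 1.20), 1 of 4 in complex II, 0 of 8 in complex III and 3 of 15 in complex V (median 1.29), with none of those lower.

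Cox5a, a nuclear-encoded subunit of complex IV, is shown in full because its ratio was the highest of that complex. Naive CD8 T cells had 213 to 226 CPM of Cox5a over 6 populations (median 222), and activated CD8 T cells had 466, 470 and 556 CPM. The ranges do not overlap, and the ratio was 2.15 (2.02 to 2.29). Cox8a, a small membrane subunit of the same complex, had 552 to 595 CPM in naive and 1185, 1078 and 1214 CPM in activated cells, a ratio of 2.02 (1.95 to 2.10). Ndufb7, an accessory subunit of the membrane arm of complex I, had 122 to 153 CPM in naive and 263, 284 and 294 CPM in activated cells, a ratio of 1.99. The groups do not overlap in either gene. The assembly factors parted: Ndufaf3, which helps build the ubiquinone-binding module of complex I, was at 53.1 against 23.1 CPM (ratio 2.30) and Ndufaf7, which methylates a subunit of that module, at 24.0 against 11.7 CPM (2.05). Ndufaf4, the partner of Ndufaf3, was at 16.4 against 42.2 CPM (ratio 0.389), Ndufaf6 at 5.53 against 11.9 CPM (0.463) and Sdhaf1, which helps insert iron-sulphur clusters into Sdhb, at 22.5 against 39.9 CPM (0.564). Cox7a2l, which joins complexes III and IV into supercomplexes, was the only subunit-group gene counted lower (0.665); Ndufb4, of complex I, had 8.30 against 12.3 CPM and did not reach the bound.

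In cells matched in UMIs (617 of each class) the summed ratio was 1.24 (1.22 to 1.25), with 16 of 82 members higher and 4 lower, where 27.1% and 14.1% of all genes were. Cox5a kept a ratio of 1.80, Cox8a 1.95, Ndufb7 1.88, Ndufaf4 0.43 and Cox7a2l 0.66. Naive and activated CD8 T cells came mostly from different populations, so class and population cannot be told apart; in population 1, which had 439 activated and 11 naive cells, the summed ratio was 1.16 (1.08 to 1.24). Ribosomal protein genes took 32.2% of UMIs in naive and 17.4% in activated cells, and with those and the mt- genes left out of the total the summed ratio was 1.05, with 6 members higher and 10 lower (14.6% and 31.3% of all genes).

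Treg differed from naive CD4 T cells by a small summed step and a few genes. The summed ratio was 1.17 (1.15 to 1.19) and the mt- ratio 0.760. Of 79 members tested, 11 were higher (13.9%, against 22.5% of all genes) and 3 lower (3.80%, against 10.7%), both shares below those of all genes. The median ratio of all genes was itself shifted by 0.16 on the log2 scale; the members' median of 1.14 stands against 1.11 for all genes. Complex I supplied 5 of the 11, and complex III had none in either direction among 8. The highest ratios belonged to 3 accessory subunits of the complex I membrane arm and 2 assembly factors: Ndufb8 had 175 against 99.5 CPM (1.75), Ndufb7 216 against 127 CPM (1.70), Ndufb9 208 against 125 CPM (1.67), Ndufaf3 41.4 against 23.7 CPM (1.75) and Sdhaf1 104 against 62.7 CPM (1.66). Sdha, the flavoprotein of complex II, was lower at 66.1 against 99.5 CPM (0.664), as were Cox7a2l (0.666) and Ndufaf4 (0.593). Uqcrfs1, the Rieske iron-sulphur protein of complex III (0.751), and Ndufv1, which binds the flavin of complex I (0.805), stayed within the bound.

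Ndufb7 in Treg had 193, 207, 139, 283 and 250 CPM in populations 1, 2, 3, 4 and 6, against 91.9 to 156 CPM (median 121) in naive CD4 T cells, so population 3 lies inside the naive range and the other 4 above it. Within populations the summed ratio was 1.323 in population 2, 1.04 (0.99 to 1.10) in population 3 and 1.23 in population 6, and the mt- ratio 0.913, 1.04 and 0.895, nearer to 1 than the pooled 0.760; populations 1 and 4, with the lowest mt- levels in Treg, held 2 and 1 naive CD4 T cells. In UMI-matched cells (174 of each) it was 1.14 (1.11 to 1.17), with 9 of 70 members higher (25.6% of all genes) and 0 lower (9.45%). The count of 11 was unstable. With mt- and ribosomal protein genes left out of the total it was 0 (14.2% of all genes, summed ratio 0.996), and after centring on the median gene 3 (16.7%). Under a stricter gate it was 17 of 71 (23.5%). It was 7 without population 1 and 6 without population 7, where the share of all genes was not computed. The count lower went from 3 to 1 without population 5 or 7. Ribosomal protein genes took 29.2% of UMIs in naive CD4 T cells and 17.6% in Treg; their part was not tested beyond that total.

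Over all cells, macrophages had higher assembly factors than monocytes and a strongly lower subunit, Ndufa4. The Ndufa4 difference was also seen at matched depth. Most assembly factors held too few UMIs to be counted there, and those that could be counted went in both directions. Over all cells the summed ratio was 1.18 (1.16 to 1.19) and the mt- ratio 1.68. Of 89 members tested, 23 were higher (25.8%, against 27.2% of all genes) and 2 lower (2.25%, against 12.8%). The median ratio of all genes was shifted by 0.17 on the log2 scale, and the members' median was 1.23 against 1.12. Assembly factors made up 8 of the 23, out of 12 tested (median ratio 1.76), against 7 of 36 in complex I and 2 of 15 in complex V. Ndufaf4 was at 18.2 against 4.58 CPM (ratio 3.99, 2.20 to 8.06), Sdhaf3, a complex II assembly factor, at 9.87 against 2.50 CPM (3.96), Ndufaf1, which helps assemble the membrane arm of complex I, at 9.17 against 2.50 CPM (3.67) and Ndufaf6 at 9.77 against 3.74 CPM (2.61). These 4 are low in both classes and rest on 11, 6, 6 and 9 UMIs in the monocytes. The intervals of the last 3 are wide, at 1.79 to 10.9, 1.66 to 10.1 and 1.35 to 5.80. Ndufa12, an accessory subunit of complex I, had 114, 124 and 141 CPM in the macrophages of populations 1, 4 and 7 and 55.7, 42.3 and 56.5 CPM in the monocytes, a ratio of 2.47 (2.07 to 2.97) with no overlap.

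The direction of the macrophage sum depended on depth. In UMI-matched cells (295 of each) it was 0.915 (0.902 to 0.928) in place of 1.18, with 3 of 77 members higher (27.5% of all genes) and 2 lower (13.9%), and the mt- ratio was 2.32. Among cells with at least 8000 UMIs (1011 macrophages and 148 monocytes) it was 1.23 (1.21 to 1.24), with 23 of 89 higher and 1 lower (25.03% and 14.2% of all genes). With Leiden clusters in place of the gate, 2 members were higher and 1 lower (19.3% and 5.93%); without population 7, 1 was lower. At matched depth Ndufa12 had a ratio of 1.70, down from 2.47, and 3 assembly factors held 100 UMIs: Sdhaf4, which helps assemble complex II, at 1.65, Ndufaf3 at 0.860 and Sdhaf2, which attaches the flavin to Sdha, at 0.741. Ndufaf4 had 37 and 11 UMIs there (3.37), under the minimum. Also under it were Ndufaf1 (3.84, 1.52 to 11.5), Sdhaf3 (2.67, 0.993 to 8.33) and Ndufaf2 (1.96, 1.15 to 3.44). Of the assembly factors under the minimum, only Ndufaf7 had a ratio below 1 (0.391, 0.205 to 0.712). Over all cells the lowest members within the bound were Uqcrfs1 (0.735), Ndufs4, an accessory subunit of complex I (0.762), and Uqcrh, the hinge protein of complex III (0.828); matched in UMIs, Uqcrfs1 was past the bound at 0.643 (0.555 to 0.743) and Uqcrh had 0.687. Ndufaf7 was lower over all cells at 10.8 against 17.1 CPM (0.632).

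Ndufa4 was first assigned to complex I and is now counted as a subunit of complex IV. Macrophages had 74.7, 50.5 and 67.2 CPM of it in populations 1, 4 and 7, against 156, 174 and 195 CPM in the monocytes of the same populations. Every macrophage value lies below every monocyte value; the ratio was 0.337 (0.302 to 0.376) over all cells and 0.29 (0.23 to 0.35) in UMI-matched cells. Shallow macrophages (2000 to 8000 UMIs) had 58.9, 32.7 and 24.2 CPM and deep ones 78.5, 53.0 and 71.9 CPM, so both are under the monocyte level. Migratory dendritic cells were also low at 87.0 CPM. Lymphocytes lay well above: 206 to 235 CPM in B cells (median 227), 192 to 251 in naive CD4 T cells (median 223), 234 to 288 in naive CD8 T cells (median 269) and 212 to 343 in NK cells. Activated CD8 T cells had 205, 142 and 269 CPM, a range that overlaps both the naive cells and the monocytes. In germinal centre B cells Ndufa4 reached 589, 576 and 615 CPM. Its gene lies at chr6:11900292-11907497 (GRCm38), minus strand.

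**Figure D5:**
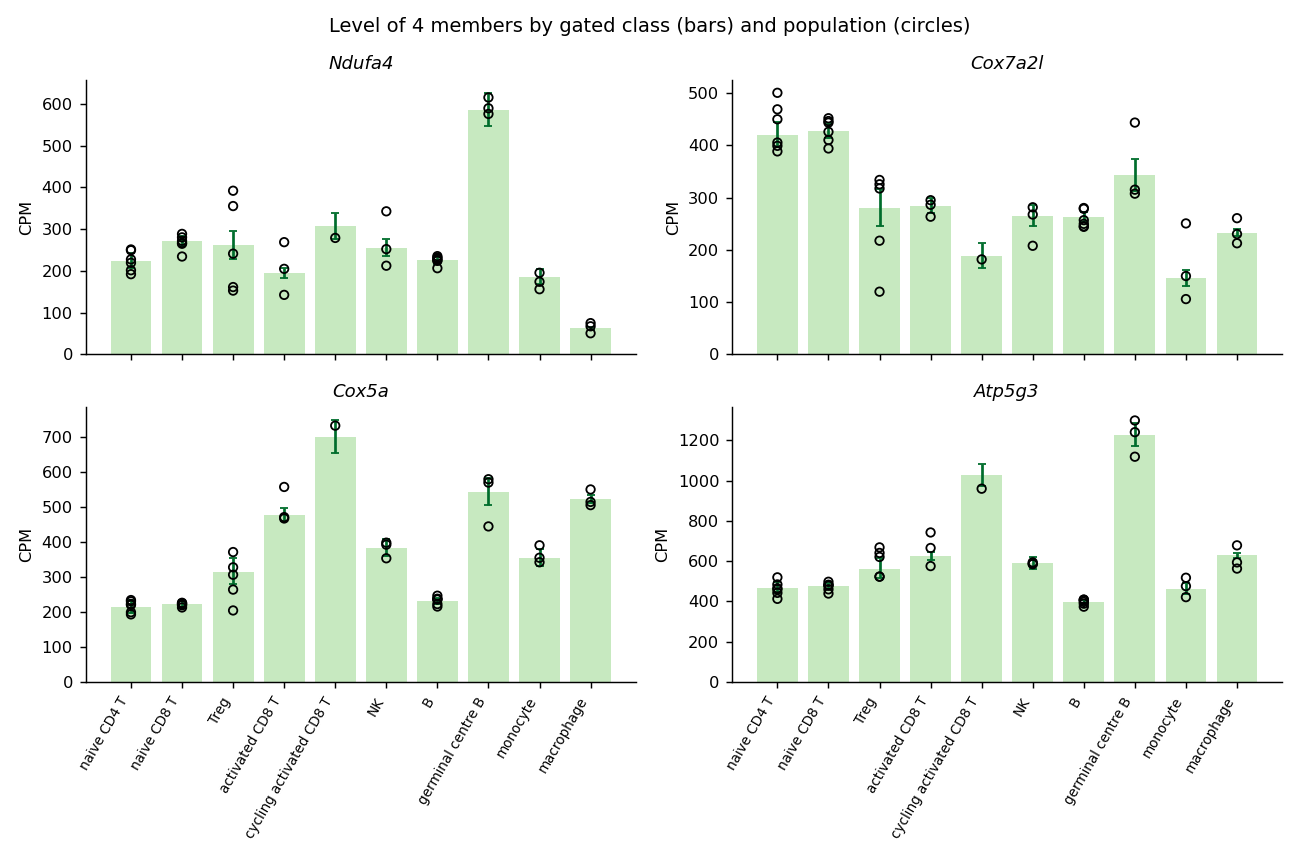
CPM of Ndufa4, Cox7a2l, Cox5a and Atp5g3 by class, 1 point per hashtag population with at least 20 cells. Ndufa4 is lowest in macrophages (50.5 to 74.7 CPM) and highest in germinal centre B cells (576 to 615 CPM), and Atp5g3 in germinal centre B cells (1119 to 1299 CPM) stands apart from B cells (374 to 410 CPM).

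Germinal centre B cells had more of nearly every subunit than other B cells. The summed ratio was 1.79 (1.77 to 1.81), and the mt- ratio was 0.759. Of 88 members tested, 55 were higher (62.5%, against 24.6% of all genes) and 2 lower (2.27%, against 26.1%), and the median ratio was 1.74 against 0.990. The populations with at least 20 cells of both classes gave 1.70, 1.81 and 1.82 (populations 2, 5 and 8), with 43 of 71, 57 of 78 and 56 of 77 members higher, where 25.6%, 28.6% and 27.8% of all genes were. By complex, 12 of 15 genes of complex V (median 2.04), 9 of 12 of complex IV (1.94), 6 of 8 of complex III (1.86), 2 of 4 of complex II (1.87) and 23 of 36 of complex I (1.74) were higher; among assembly factors 3 of 13 were (median 1.09).

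Atp5g3, which encodes a precursor of subunit c, the ring of ATP synthase that protons turn, had the highest ratio. B cells had 374 to 410 CPM over 6 populations (median 402) and germinal centre B cells 1119, 1241 and 1299 CPM, a ratio of 3.10 (2.93 to 3.28) with no overlap. Atp5b, the catalytic beta subunit of ATP synthase, had 292 to 344 CPM in B cells and 768, 932 and 982 CPM in germinal centre B cells (ratio 2.80), again without overlap. Ndufab1, the mitochondrial acyl carrier protein that is also a subunit of complex I, had 218 against 80.2 CPM (2.72), Ndufa12 186 against 69.0 CPM (2.69) and Uqcr11, a small subunit of complex III, 269 against 101 CPM (2.66). Sdhaf1 moved the other way, with 19.9, 25.2 and 24.6 CPM in germinal centre B cells against 59.1 to 73.2 CPM in B cells (ratio 0.352). Ndufb4 was counted lower by size, at 9.07 against 15.7 CPM (0.578), but its interval of 0.301 to 1.02 includes 1. Ndufa6, an accessory subunit of complex I (0.756), Atp5sl, a protein related to a former ATP synthase factor and known from complex I assembly (0.773), and Sdhaf3 (0.873) were within the bound.

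The median germinal centre B cell had 10720 UMIs and the median B cell 2914.5, so only 46 cells of each class could be matched. There the summed ratio was 1.24 (1.20 to 1.29) and the median ratio 1.23 against 1.12 over all genes. Of 45 members tested, 7 were higher, where 24.9% of all genes were, and 0 lower, where 11.4% were, and 5 of the 31 earlier calls that could be tested again held. Atp5g3 had a ratio of 1.27 (1.05 to 1.56) there, Atp5b 1.41 and Cox5a 0.999, while Ndufab1 (1.73) and Sdhaf1 (0.460) were under the minimum of 100 UMIs. Malat1 was at 2088 CPM in germinal centre B cells and 8785 CPM in B cells, and cell-cycle markers at 1426 and 0 CPM, the latter by the gate; their part in the difference was not tested. Without population 8, 1 member in place of 2 was lower.

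Activated CD8 T cells in cycle, defined by genes such as Mki67 and Top2a, differed from those outside it by 1.17 (1.16 to 1.19) in the sum. The mt- ratio was 1.08. Of 82 members tested, 13 were higher (15.9%, against 16.5% of all genes) and 4 lower (4.88%, against 14.4%), with a median ratio of 1.22 against 0.991. The highest were Ndufa5, an accessory subunit of complex I, at 111 against 58.3 CPM (1.91), Ndufc2, of its membrane arm, at 221 against 118 CPM (1.88), Atp5b at 683 against 371 CPM (1.84), Ndufab1 at 160 against 91.6 CPM (1.75) and Ndufaf2, a complex I assembly factor, at 27.2 against 16.2 CPM (1.67). In population 1, with 35 cycling and 439 other cells, Atp5b had 570 CPM in cycling cells, while other activated cells had 349, 360 and 481 CPM in populations 1, 4 and 7.

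The genes lower in cycling cells were single members of 4 different groups. Uqcrh had 543 CPM in the cycling cells of population 1 and 869, 813 and 873 CPM in other activated cells of populations 1, 4 and 7, a ratio of 0.593 (0.545 to 0.643) over all cells. Ndufa6 had 165 CPM there against 268, 271 and 299 CPM (ratio 0.618), and Cox7a2l 182 CPM against 295, 264 and 286 CPM (0.662). Atp5sl was at 10.1 against 21.8 CPM (0.464), and Sdhaf2 was within the bound at 0.759. In UMI-matched cells (57 of each) the summed ratio was 1.05 (1.02 to 1.07) and 0 of 70 members were higher (16.2% of all genes) and 2 lower (7.42%), namely Uqcrh (0.660) and Ndufa6 (0.640); Cox7a2l had 0.678, just inside the bound. Population 8 gave 3 of the 78 cycling cells. Without it, where the share of all genes was not computed, 7 members were higher in place of 13. With Leiden clusters in place of the gate 25 of 87 were, where 21.7% of all genes were.

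B cells and naive CD4 T cells, both resting, differed by few of these genes. The summed ratio of B to naive CD4 T cells was 0.949 (0.939 to 0.959), and it was 0.993 (0.979 to 1.01) in UMI-matched cells (629 of each). The mt- ratio was 1.28. Of 87 members, 2 were higher (2.30%, against 20.6% of all genes) and 1 lower (1.15%, against 13.1%). Sdhaf3 had 15.2 against 5.47 CPM (2.78), Atp5sl 47.8 against 25.9 CPM (1.85) and Cox7a2l 263 against 420 CPM (0.626). Cox8a (1.42), Ndufaf2 (1.37) and Ndufs8, an iron-sulphur subunit of complex I (1.29), led the members within the bound, and Ndufv3 (0.694), of the NADH-binding module of complex I, and the ATP synthase genes Atp5j2 (0.753), Atp5b (0.754) and Atp5h (0.768) closed them. The 6 populations gave summed ratios of 0.960, 0.905, 0.976, 0.943, 0.952 and 0.954.

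Cox7a2l changed places with its sister Cox7a2 between classes, which its share within the Cox7a isoform group shows without reference to any other gene. Cox7a2l made up 66.2% (63.9 to 68.4) of Cox7a UMIs in naive CD4 T cells, 65.4% in naive CD8 T cells, 56.0% in B cells, 55.6% in Treg, 48.7% in germinal centre B cells, 45.1% (43.4 to 46.8) in activated CD8 T cells, 42.6% in macrophages, 38.1% in NK cells, 31.8% in monocytes and 28.6% (25.6 to 31.8) in cycling activated CD8 T cells. By population the share was 63.3% to 66.8% in naive CD8 T cells and 41.6% to 46.5% in activated CD8 T cells, without overlap. Treg again split, at 38.6% and 36.7% in populations 1 and 4 and 63.5%, 55.4% and 65.3% in populations 2, 3 and 6. Matched in UMIs, activated CD8 T cells had 46.3% and naive ones 64.9%, cycling cells 26.1% and other activated cells 40.2%, and B cells 54.1% and naive CD4 T cells 66.1%. At matched depth germinal centre B cells turned around, with 64.4% (58.0 to 70.5) against 53.8% (46.0 to 61.4) in B cells, and their populations 2, 5 and 8 ranged from 43.7% to 57.3%, across the B cell range of 52.8% to 57.4%. Cox7a2l lies at chr17:83501918-83517330 (GRCm38), minus strand.

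The 3 genes for ATP synthase subunit c, Atp5g1, Atp5g2 and Atp5g3, encode the same mature protein behind different import peptides. Atp5g3 gave 40.9% (39.9 to 41.9) of their UMIs in B cells and 51.7% (49.98 to 53.4) in germinal centre B cells, 39.0% to 43.5% and 50.6% to 53.1% by population. In naive and activated CD8 T cells it gave 42.5% and 49.8%, and by population 40.7% to 43.8% and 47.7% to 53.1%; matched in UMIs the shares were 41.7% and 50%. Monocytes had 54.5% and macrophages 46.8%, and 54.5% and 46.1% when matched. Neither CD8 T cells nor the macrophage pair overlapped by population (monocytes 54.6% to 56.0%, macrophages 46.1% to 47.2%). The germinal centre B cell difference shrank with matching, to 45.1% (40.7 to 49.5) against 40.4% (35.8 to 45.1), intervals that overlap.

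Cox6a2, the heart and muscle isoform of a complex IV subunit, marked plasmacytoid dendritic cells. It had 275 UMIs in 16 of 21 of these cells (76.2%, exact binomial 52.8% to 91.8%), 1756 CPM, where Cox6a1, the general isoform, had 294 CPM. All 8 populations with such cells held it, at 1873, 1256, 2267, 2514, 2411, 205, 733 and 2086 CPM in populations 1, 2, 3, 5, 6, 7, 8 and 9, on 1 to 5 cells each. The level was lowest in population 7, which has 1 cell with 1 UMI. Elsewhere it was rare. NK cells had 7 UMIs in 3 of 410 cells (2.80 CPM), macrophages 9 UMIs, monocytes 1, and B cells 0 in 3314 cells, which by a limit of 3 counts allows up to 0.0905% of cells with a UMI (and sets no limit on cells that express the gene), at a median of 2914.5 UMIs per cell against 7814 in plasmacytoid dendritic cells. Thinned to 2500 UMIs per cell, it was seen in 16 of 21 plasmacytoid dendritic cells, 3 of 368 NK cells, 2 of 1442 macrophages and 0 of 2264 B cells. Cells outside the gates held 90 UMIs in 29 of 11940 cells. Cox6a2 alone raised the sum of this class from 18372 to 20128 CPM; its gene lies at chr7:128205435-128206387 (GRCm38), minus strand.

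Among the other isoforms, Cox4i2, the lung isoform that is induced by low oxygen in other cells, had 16.2 CPM in macrophages (321 UMIs) and 7.07 CPM in monocytes (17 UMIs), and at most 0.369 CPM in any lymphocyte class, beside 831 and 819 CPM of Cox4i1 in macrophages and monocytes. Cox7a1, the muscle isoform, had 5.84 CPM in macrophages (116 UMIs) and was seen in 6.34% of them, or 1.60% after thinning to 2500 UMIs; germinal centre B cells had 3.49 CPM and monocytes 2.50 CPM. Cox6b2, a testis isoform, reached 4.99 CPM in monocytes (12 UMIs). These are traces beside their general counterparts. Sdhaf1 in migratory dendritic cells (151 CPM, 59 UMIs) and Cox7a1 in macrophages were the only members at 3 or more times their median over classes with at least 50 UMIs in that class, apart from Cox6a2 and Cox4i2, whose median over classes is at or near 0.

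The core subunits were mostly highest in germinal centre B cells. Cox4i1 ran from 679 CPM in B cells to 1170 CPM in germinal centre B cells, Uqcrc1, a core protein of complex III, from 126 CPM in activated CD8 T cells to 246 CPM in germinal centre B cells, and Ndufv1 from 52.8 CPM in monocytes to 94.2 CPM in germinal centre B cells. Uqcrfs1 ran from 137 CPM in Treg to 234 CPM and Sdha from 54.9 CPM in monocytes to 107 CPM, both highest in germinal centre B cells. The iron-sulphur protein Sdhb spanned 86.9 to 300.1 CPM and the catalytic Atp5b 309 to 910 CPM, both from migratory dendritic cells to germinal centre B cells, and Atp5a1, the alpha subunit, 184 to 671 CPM likewise. Ndufs1, the largest iron-sulphur subunit of complex I, spanned 12.8 CPM in plasmacytoid dendritic cells to 43.3 CPM in germinal centre B cells. The low end rests on 2 UMIs and the high end on 62, so the width of that range is not resolved. Of 80 members with at least 1000 UMIs in gated cells, 44 were highest in germinal centre B cells, 16 in cycling and 6 in other activated CD8 T cells, while 27 were lowest in migratory dendritic cells, 20 in B cells and 11 in monocytes. The share of all genes with these highest and lowest classes was not computed. These counts were not matched in depth, and germinal centre B and cycling cells held medians of 10720 and 15094 UMIs, against 2914.5 in B cells. The highest class held a median of 2.40 times the lowest (1.43 to 11.4).

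Most members varied together across classes, and a few did not. Over 39 sums of a class in a population, Spearman's rho of each of the 80 members with the sum of the others had a median of 0.65; 53 were above 0.5 and 7 below 0. The 39 sums share 1 pool and libraries, differ in depth and come from related cells, so these values describe the pattern only. Atp5g3 and Atp5j2, subunit f of ATP synthase, were closest at 0.93 each, followed by Cox6c (0.88), Atp5j (0.87) and Ndufa1 (0.86). Sdhaf1 was farthest (-0.46), then Ndufa6 and Atp5sl (-0.28 each), Uqcrfs1 (-0.20), Ndufaf4 (-0.15), Sdha (-0.13) and Cox7a2l (-0.12). Ndufa4 had 0.28 and Uqcrh 0.06. Outside the 96 genes, those with at least 100 UMIs in every sum numbered 81, and the most alike in pattern to the summed members were Oaz1 and Pfn1 (rho 0.76 each), Gapdh and Cfl1 (0.70 each) and Actg1 (0.67). The summed mt- genes had -0.60, and the median rho of the other genes with at least 100 UMIs in every sum was -0.34. Values for other genes at the cut used for the members are not given.

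The promoters of the closest and the farthest members are shown because these genes bound the range of shared variation; Cox7a2l and Ndufa4 are added because results above turn on them. RefSeq gave a promoter window for 77 of the 96 genes (GRCm38.p6). Each line runs 5′ to 3′ on the gene's strand, from 170 bases before to 30 bases after the start, and capitals mark every match, on either strand, to 6 motifs: the ETS core CCGGAAG (bound by factors such as GABP), the NRF1 site TGCGCA, the YY1 core AAGATGG, the GC box GGGCGG, the E-box CACGTG and the CCAAT box CCAAT. Atp5g3 is at chr2:73911297-73911496, Atp5j2 at chr5:145191512-145191711, Sdhaf1 at chr7:30322346-30322545, Ndufa6 at chr15:82354262-82354461, Cox7a2l at chr17:83514304-83514503 and Ndufa4 at chr6:11907421-11907620, all on the minus strand. For each gene the first window listed was used. Those of Atp5j2 (gene at chr5:145183698-145192062), Sdhaf1 (chr7:30321406-30323895) and Cox7a2l (chr17:83501918-83517330) lie wholly inside the annotated gene, so they show an internal start and not its outer 5′ end.
Atp5g3: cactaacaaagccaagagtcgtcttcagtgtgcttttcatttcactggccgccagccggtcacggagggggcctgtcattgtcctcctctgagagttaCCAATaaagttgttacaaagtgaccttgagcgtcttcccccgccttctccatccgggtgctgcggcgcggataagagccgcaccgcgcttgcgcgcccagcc
Atp5j2: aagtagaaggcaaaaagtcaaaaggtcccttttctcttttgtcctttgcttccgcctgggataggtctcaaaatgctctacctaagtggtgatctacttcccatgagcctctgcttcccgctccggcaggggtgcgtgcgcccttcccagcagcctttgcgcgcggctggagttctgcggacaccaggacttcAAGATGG
Sdhaf1: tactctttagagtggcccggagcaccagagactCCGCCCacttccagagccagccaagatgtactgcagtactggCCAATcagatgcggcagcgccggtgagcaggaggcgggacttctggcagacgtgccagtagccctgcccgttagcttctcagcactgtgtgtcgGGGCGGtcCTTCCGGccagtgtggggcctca
Ndufa6: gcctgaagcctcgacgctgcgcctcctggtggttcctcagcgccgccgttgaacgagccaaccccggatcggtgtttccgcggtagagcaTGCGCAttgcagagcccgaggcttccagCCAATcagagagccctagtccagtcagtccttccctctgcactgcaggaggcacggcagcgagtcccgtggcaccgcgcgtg
Cox7a2l: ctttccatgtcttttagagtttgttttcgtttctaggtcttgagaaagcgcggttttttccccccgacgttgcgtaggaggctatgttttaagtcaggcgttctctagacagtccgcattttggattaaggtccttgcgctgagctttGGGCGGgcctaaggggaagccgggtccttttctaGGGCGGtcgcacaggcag
Ndufa4: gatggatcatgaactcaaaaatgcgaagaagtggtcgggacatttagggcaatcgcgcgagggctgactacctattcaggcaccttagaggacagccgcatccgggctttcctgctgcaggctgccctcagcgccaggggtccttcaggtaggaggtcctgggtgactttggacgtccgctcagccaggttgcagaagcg
Atp5g3 holds a CCAAT box and Atp5j2 a YY1 core that ends at the last base shown. Sdhaf1 holds 2 GC boxes, a CCAAT box and an ETS core on the other strand, Ndufa6 an NRF1 site and a CCAAT box, Cox7a2l 2 GC boxes, and Ndufa4 none of the 6. A link between these motifs and the shared variation was not tested.

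All 77 windows, 250 bases before to 50 after the first listed start of each gene, were then counted. The NRF1 site was in 25.97%, against 16.0% of 6874 other genes with at least 1000 UMIs and 8.06% of 27025 windows of all genes. The ETS core was in 24.7% against 21.4% and 9.12%, and the YY1 core in 11.7% against 8.26% and 6.48%. The GC box was less frequent than in other expressed genes, 46.8% against 66.6%, with 35.9% in all windows; the E-box was in 6.49%, 10.9% and 7.24% and the CCAAT box in 42.9%, 38.5% and 37.9%. Split by rho into 33 members each, the more coordinated members held the ETS core in 11 and the less coordinated in 6, the CCAAT box in 17 and 10, the GC box in 11 and 17 and the NRF1 site in 9 and 9. A match is a description of the letters and not a bound site.

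Other parts of the chain were counted in the same way, to be read against the shares of all genes given above. Of 13 related genes (among them cytochrome c, Cyc1 of complex III, the electron transfer flavoproteins and the mitochondrial phosphate and nucleotide carriers), 10 were higher and 0 lower in germinal centre B cells than in B cells, a summed ratio of 1.92, and 4 and 0 in activated against naive CD8 T cells (1.25). Cycling against other activated CD8 T cells gave 5 and 0 of 13 (1.30), macrophages against monocytes 3 and 0 of 13 (1.03), Treg against naive CD4 T cells 2 and 0 of 12 (1.10) and B against naive CD4 T cells 1 and 1 of 13 (0.947). Of further assembly factors (such as Surf1 and Sco1 for complex IV), 16 of 33 were higher and 0 lower in macrophages than in monocytes, 10 and 4 of 29 in activated against naive CD8 T cells and 6 and 1 of 29 in germinal centre B cells against B cells; Treg had 2 and 2 of 14, cycling cells 1 and 2 of 22 and B cells 2 and 1 of 29. The 13 mt- genes themselves had 0 higher and 12 lower in activated against naive CD8 T cells, 9 higher and 0 lower in macrophages against monocytes and 0 higher and 2 lower in germinal centre B cells against B cells.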

How the data were processed

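The authors' deposited table holds raw UMI counts per gene and cell, made with Cell Ranger 8.0.1 on mouse mm10, per the submitters' processing notes; how reads shared with pseudogenes were counted is not stated there. Of 21624 barcodes (0 repeated), 93 failed the limits in the series' design text (under 500 UMIs, under 200 genes, over 20% mitochondrial); 15 and 90 failed the latter limits and 0 the first. Hashtags were assigned where the top tag had at least 3 times the UMIs of the next, which left out 258 cells, and Scrublet called 184 doublets (0.855%, with 8% expected), which were removed, leaving 21094 cells.

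Cells were gated on marker genes, and UMIs were summed per class and population; populations with under 20 cells of a class were not shown singly. Ratios carry conditional binomial intervals and levels exact Poisson intervals, and no test was made, since the populations are not mapped to a group. The ratio code was tested on simulated data. Genes were named by rule: the 5 highest and 5 lowest ratios in each comparison, isoform groups, members at 3 or more times their median class, and core subunits. Members and lists were chosen with earlier results of these data known. Alternatives were another denominator, centring, a minimum of 50 or 500 UMIs in place of 100, a stricter gate, Leiden clusters, equal weights, each population left out and, chosen after seeing the data, matching in UMIs per cell (also for isoform shares), macrophages and monocytes of at least 8000 UMIs, populations with 10 to 19 cells, and rho over members with at least 1000 UMIs. Python 3.11.15, scanpy 1.11.5, numpy 2.4.6, scipy 1.17.1, pandas 2.3.3, scikit-learn 1.9.0 and matplotlib 3.10.9 were used.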

Additional observations from a re-analysis of the deposited data

Results flagged for a closer look

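In 118 groups of 5 or 6 populations, 4 held a population far from the others by Dixon's ratio, and chance alone gives about 1 in 20. Uqcrh in B cells was lowest in population 3, at 515.7 CPM, where the others had 574.9 to 598.1 CPM. Sdhaf1 in B cells was lowest in population 9, at 59.1 CPM, where the others had 68.4 to 73.2 CPM. Uqcrfs1 in B cells was highest in population 2, at 203 CPM, where the others had 166 to 178 CPM. Sdha in naive CD8 T cells was highest in population 8, at 107 CPM, where the others had 81.4 to 89.6 CPM.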

How the results depend on the processing

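Of 242 recomputed counts of members, 203 stayed within 1.5 times the reported count and 39 did not. Of 109 recomputed summed ratios, 71 stayed within the reported interval, 36 left it with the same direction and 2 changed direction. Depth-matched cells (chosen after seeing the data) gave summed ratios of 1.24 for activated CD8 T, 1.14 for Treg, 0.915 for macrophage (reversed), 1.24 for germinal centre B, 1.05 for cycling and 0.993 for B cells, with 3 macrophage, 7 germinal centre and 0 cycling members higher and 0 Treg, 0 germinal centre and 2 cycling members lower. Macrophages and monocytes with at least 8000 UMIs gave 1.23 and 1 lower. Without mt- and ribosomal protein genes in the total the ratios were 1.05, 0.996 (Treg, reversed), 1.20, 1.71 and, for B cells, 0.881. There 6 activated CD8 T (14.6% of all genes) and 0 Treg members (14.2%) were higher, and 10 activated CD8 T (31.3%) and 2 B cell members (16.3%) lower. Without mt- genes alone the activated CD8 T ratio was 1.28. Centred on the median gene, the ratios were 1.23 (activated CD8 T), 1.05 (Treg), 1.05 (macrophage) and 0.921 (B), with 3 Treg members higher. A minimum of 500 UMIs gave 6 Treg, 14 macrophage and 1 B cell members higher, and 1 activated CD8 T, 1 Treg, 1 macrophage and 1 germinal centre member lower. Fewer members reach that minimum and the share of all genes is not given, so these counts cannot be set against those at 100 UMIs. The stricter gate gave ratios of 1.25 (Treg), 1.22 (macrophage), 1.86 (germinal centre), 1.14 (cycling) and 0.963 (B), and 2084.5 CPM of Cox6a2. It gave 17 Treg (23.5% of all genes) and 6 B cell members (21.8%) higher, and 1 germinal centre (28.0%) and 2 B cell members (13.5%) lower. Leiden clusters gave 1.24 (activated CD8 T), 1.10 (macrophage), 1.82 (germinal centre), 1.24 (cycling) and 0.892 (B). Higher were 4 Treg (20.2% of all genes), 2 macrophage (19.3%), 25 cycling (21.7%) and 4 B cell members (19.9%). Lower were 1 Treg (7.41%), 1 macrophage (5.93%), 2 cycling (20.8%) and 2 B cell members (15.4%). Equal weights gave 1.322 (activated CD8 T), 1.13 (cycling) and 7 Treg members higher (25.3% of all genes). Leaving out each population in turn gave ratios of 1.27 to 1.31 (activated CD8 T), 1.16 to 1.21 (macrophage), 1.77 to 1.82 (germinal centre) and 1.14 to 1.19 (cycling), 6 to 14 Treg and 7 to 17 cycling members higher, and 1 to 3 Treg, 1 to 2 macrophage and 1 to 3 germinal centre members lower. For the counts with a population left out, the share of all genes is likewise not given. The cause of these changes was not tested. Classes paired within a population are given as ratios in the report, and no paired test was made, since the populations are mapped to no group. With 1 pool and unmapped hashtags, intervals cover counting error only, and classes of under 100 cells (cycling CD8 T, migratory and plasmacytoid dendritic cells) rest on few cells.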

Other observations

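Gene lists next to the respiratory chain were read in the same comparisons. The shares of all genes higher and lower there were 23.8% and 18.1% for activated CD8 T cells and 22.5% and 10.7% for Treg. They were 27.2% and 12.8% for macrophages and 24.6% and 26.1% for germinal centre B cells. Cycling cells had 16.5% and 14.4%, and B cells against naive CD4 T cells 20.6% and 13.1%. The counts below are to be read against these shares. Of the glycolysis genes, 13 of 13 were higher and 0 lower in activated than in naive CD8 T cells (summed ratio 3.62, 11924 against 3290 CPM), and 10 of 13 were higher and 0 lower in Treg than in naive CD4 T cells (2.07). That sum rests largely on populations 1 and 4: Treg had 12247 and 7686 CPM there and 5594, 4285 and 4797 CPM in populations 2, 3 and 6, where naive CD4 T cells had 3433, 3721 and 3720 CPM. Germinal centre B cells had 8 higher and 2 lower of 13 (2.78), cycling against other activated CD8 T cells 1 and 0 of 13, macrophages against monocytes 0 and 3 of 14 (0.971), and B against naive CD4 T cells 2 and 4 of 13. Mitochondrial ribosomal protein genes were higher in germinal centre B cells than in B cells for 61 of 76 with 0 lower (1.92), in macrophages than in monocytes for 35 of 76 with 1 lower, and in cycling CD8 T cells for 20 of 69 with 1 lower. In activated against naive CD8 T cells 16 of 75 were higher and 9 lower, in Treg 6 and 9 of 58, and in B cells 1 and 4 of 76. Genes of the citric acid cycle and pyruvate dehydrogenase were higher in 10 of 17 and lower in 0 in germinal centre B cells, and higher in 1 and lower in 2 of 17 in activated CD8 T cells. Mitochondrial import genes were higher in 12 of 18 and lower in 0 in germinal centre B cells, and higher in 7 of 18 and lower in 0 in macrophages. Regulators of mitochondrial biogenesis (such as Nrf1, Gabpa and Tfam) had 1 higher and 5 lower of 11 in activated CD8 T cells (0.774), and genes against reactive oxygen 1 higher and 3 lower of 9 in macrophages (0.562). These are the comparisons whose dependence on depth is given above, and the lists were not matched in depth.

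Across the 39 sums of a class in a population, the summed members went with mitochondrial ribosomal protein genes (Spearman's rho 0.83), other parts of the chain (0.83), further assembly factors (0.75) and glycolysis (0.69), less with import (0.45), reactive oxygen defence (0.30) and the citric acid cycle (0.21), and inversely with biogenesis regulators (-0.29). The points share 1 pool and differ in depth, so these are descriptions.

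AA467197, known also as Nmes1, encodes a protein related to Ndufa4. It was read after the Ndufa4 values were seen. Monocytes had 914 CPM and macrophages 478 CPM, migratory dendritic cells 182 CPM, cycling activated CD8 T cells 144 CPM, other activated CD8 T cells 138 CPM and NK cells 96.9 CPM. Treg had 21.3 CPM, B cells 9.69, plasmacytoid dendritic cells 6.39, naive CD8 T cells 6.16, germinal centre B cells 4.88 and naive CD4 T cells 3.65 CPM. The germinal centre B cells, highest for Ndufa4, are thus near the bottom for AA467197, and monocytes are above macrophages for both genes.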
